A study of Mus musculus with 9 samples.

Results

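The genes described here encode CXC and CX3C chemokines, small secreted or membrane-bound proteins that steer the movement of leukocytes. They were the 9 rows of the raw count matrix with the symbols Cxcl1, Cxcl2, Cxcl3, Cxcl5, Cxcl10, Cxcl12, Cxcl14, Cxcl16 and Cx3cl1, out of 55418 rows. RNA-seq was run on 66cl4, a mouse mammary carcinoma line labelled triple negative, in 3 groups of 3 libraries described as biological replicates. SCR cells carried a scrambled short hairpin RNA, and shEya3_KD1 and shEya3_KD2 cells each carried a different hairpin against Eya3, a transcriptional coactivator with phosphatase activity. Cells of all 3 groups had been transduced with a hairpin vector and were kept in 2.5 ug/ml puromycin in medium with 10% calf serum. The labels do not say whether a hairpin line was a clone or a pool, or whether replicates were separate transductions, so p-values measure the spread between these libraries. Of the 9 genes, 7 passed the filter on low counts and were tested among 15914 genes. Cxcl14 and Cxcl16 did not pass. Cxcl2 passed only through its level in SCR.

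CXC chemokines are named for the residue that separates their first cysteines, and Cx3cl1 is the only known ligand of the CX3C class. In mice Cxcl1, Cxcl2, Cxcl3 and Cxcl5 act on the receptor Cxcr2 and draw neutrophils, and their transcription is a classical target of NF-kB. Cxcl10 is induced by interferons and acts on Cxcr3 of activated T cells and natural killer cells. Cxcl12 acts on Cxcr4 and is scavenged by Ackr3, whereas Cxcl16 and Cx3cl1 are made as transmembrane proteins that proteases can shed.

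Library totals ranged from 27758862 to 52691960 counts. Levels are given as CPM, counts scaled to the library totals with TMM factors, with group means ± SD of 3 libraries and log2 fold changes ± SE. Eya3 itself stood at 68.1 to 79.0 CPM in SCR, 21.5 to 24.9 in shEya3_KD1 and 34.1 to 39.8 in shEya3_KD2, and both falls passed the test (log2 fold change -1.66 ± 0.08 SE and -0.96 ± 0.08). The labelled cell type was borne out in part. Krt8, a keratin of epithelial cells, was at 679 CPM in SCR, but the epithelial gene Epcam had no counts in any library. The other keratin genes read, Krt18, Krt5 and Krt14, were at 0.0277, 0.0211 and 1.32 CPM in SCR. Cdh1 did not pass the filter on low counts, and the vimentin gene Vim was at 2099 CPM in SCR. Of the genes for the receptors by which tumours are classed as triple negative, Pgr had no counts, Esr1 was at 7.12 and Erbb2 at 53.6 CPM in SCR. These are mRNA levels, and receptor protein was not measured here. Neutrophil markers summed to at most 0.531 CPM and lymphocyte markers to at most 1.47 CPM in every library.

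The promoters of Cxcl1, Cxcl3 and Cxcl10 are shown because these genes were among the chemokines with the largest changes. With the second hairpin Cxcl10 went the opposite way to Cxcl1 and Cxcl3. Cxcl2 is shown as a further Cxcr2 ligand, although it was nearly silent. Sequences are from RefSeq on GRCm38.p6, which had a promoter entry for 7 of the 9 genes. It had none for Cxcl5 or Cxcl16, so the promoter of the abundant Cxcr2 ligand Cxcl5 was not read. In the first 3 windows capitals mark GGGAATTTCC, the match to the kB consensus that the Cxcl1, Cxcl2 and Cxcl3 promoters share, and the TATA-like letters ATAAAAGG. In the Cxcl10 window they mark the interferon-response-like letters GAAA, a pair of free bases and GAAA, and each match to the kB consensus, the letters that NF-kB is known to bind. The Cxcl1, Cxcl2 and Cxcl3 windows are on the plus strand at chr5:90891166-90891218, chr5:90903794-90903849 and chr5:90786020-90786079, and the Cxcl10 window is on the minus strand at chr5:92348975-92349110. All lie before the annotated start.
Cxcl1: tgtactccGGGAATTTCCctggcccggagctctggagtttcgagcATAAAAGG
Cxcl2: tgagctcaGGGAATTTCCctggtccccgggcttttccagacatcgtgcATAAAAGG
Cxcl3: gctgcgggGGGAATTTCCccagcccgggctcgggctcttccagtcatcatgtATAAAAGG
Cxcl10: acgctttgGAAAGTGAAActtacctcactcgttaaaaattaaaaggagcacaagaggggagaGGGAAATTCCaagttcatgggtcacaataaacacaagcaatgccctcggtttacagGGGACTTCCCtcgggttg

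In the 250 bases before the start, read on both strands, GGGAATTTCC was found in 28 of 32851 mouse promoters (0.0852%). Cxcl1, Cxcl2 and Cxcl3 were among them by construction, because these letters were picked as the kB match that their promoters share. The rarity of the letters therefore supports nothing about these genes. In Cxcl1, Cxcl2 and Cxcl3 the match began 71, 97 and 73 bases before the start. The kB consensus matched there on the opposite strand as well, shifted by 1 base. ATAAAAGG, searched on the gene's own strand and present in 1.00% of promoters, followed the kB match after 27 bases in Cxcl1, 30 in Cxcl2 and 34 in Cxcl3. In Cxcl3 it overlaps TATAAA, which 7.59% of promoters hold. The kB consensus as a whole was present in 3.90% of promoters and in 4 of the 7 chemokine promoters read, among them Cxcl10 with matches 159 and 103 bases before the start. The interferon-response-like letters were present in 2.98% of promoters, among them Cxcl10 at 213 and Cxcl14 at 172 bases before the start. These matches are letters in a window and no measure of binding.

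Cxcl1, Cxcl5 and Cxcl3, the abundant Cxcr2 ligands, fell together with each hairpin, to between 9.0% and 10.5% of their SCR level with shEya3_KD1 and between 30.3% and 37.8% with shEya3_KD2. Cxcl1 (chromosome 5, 90891241 to 90893115 in mm10, plus strand) was at 215, 203 and 214 CPM in the SCR libraries, at 17.2, 18.4 and 21.3 in shEya3_KD1 and at 74.9, 57.5 and 77.9 in shEya3_KD2. The 3 groups did not overlap, and every shEya3_KD2 library lay between the SCR and the shEya3_KD1 libraries.

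Cxcl5 (chromosome 5, 90759360 to 90761624, plus strand) showed the same order of groups, at 218, 187 and 202 CPM in SCR, 21.3, 21.2 and 21 in shEya3_KD1 and 71.0, 68.6 and 89.3 in shEya3_KD2. Cxcl3 (chromosome 5, 90786103 to 90789600, plus strand) was at 88.4, 81.4 and 76.4 CPM in SCR, 8.04, 7.84 and 8.99 in shEya3_KD1 and 24.6, 22.3 and 27.8 in shEya3_KD2. Both genes were again highest in every SCR library and lowest in every shEya3_KD1 library.

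In the fit across all genes, Cxcl1 changed by -3.48 ± 0.11 on the log2 scale with shEya3_KD1 (Benjamini-Hochberg adjusted p = 1.18e-11) and by -1.58 ± 0.10 with shEya3_KD2 (adjusted p = 5.55e-08). Cxcl3 changed by -3.31 ± 0.10 and -1.72 ± 0.09, and Cxcl5 by -3.25 ± 0.10 and -1.40 ± 0.09. These values lie below the 5th percentile of all genes tested, which was -1.91 for the first hairpin and -1.21 for the second. Both comparisons share the SCR libraries. The hairpins also differed directly: shEya3_KD2 was higher than shEya3_KD1 by 1.89 ± 0.11 for Cxcl1, 1.85 ± 0.10 for Cxcl5 and 1.59 ± 0.10 for Cxcl3, with adjusted p of 6.82e-09, 9.68e-10 and 3.72e-09. In bulk RNA, fewer cells that express a gene and less RNA per cell cannot be told apart.

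Cxcl2 (chromosome 5, 90903871 to 90905938, plus strand), which encodes a close relative of Cxcl1, was nearly silent. With SCR it had 16, 22 and 19 counts per library, against 11, 6 and 5 in shEya3_KD1 and 3, 4 and 9 in shEya3_KD2, and the SCR libraries were above all others. Its mean was 0.402 ± 0.0749 CPM in SCR (SD, n = 3), 0.186 ± 0.0765 in shEya3_KD1 and 0.140 ± 0.0773 in shEya3_KD2. Its fitted changes were -1.08 ± 0.40 (adjusted p = 0.0353) and -1.56 ± 0.43 (adjusted p = 0.00813). Since only SCR had 3 libraries at the filter's cutoff, against 1 in shEya3_KD1 and 0 in shEya3_KD2, entry to the test favoured a fall, and these calls support nothing here. The first call was lost without SCR replicate 2 or 3 or shEya3_KD1 replicate 2 or 3 (-1.03, -1.0, -0.90 and -0.96) and in DESeq2 (adjusted p = 0.0767), and the second without shEya3_KD2 replicate 1 (-1.09, adjusted p = 0.0658). Between the hairpins Cxcl2 differed by -0.48 ± 0.51 (adjusted p = 0.467). Cxcl2 shares 61 words of 50 bases with the mRNAs of Cxcl3, 3.28% of its own and 6.31% of those of Cxcl3, so a few of its reads may belong to its neighbour.

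Macrophages and neutrophils also make Cxcr2 ligands. The 12 macrophage markers summed to 50.6 to 53.5 CPM in SCR, 27.3 to 32.0 in shEya3_KD1 and 23.0 to 28.6 in shEya3_KD2. The sum and the abundant Cxcr2 ligands were both highest in SCR. Between the hairpins Cxcl1, Cxcl3 and Cxcl5 were higher in shEya3_KD2, which was not so for the marker sum. Nearly all of it was Lyz2 (38.6, 25.1 and 11.1 CPM), Cd68 (9.64, 3.54 and 12.1) and Mrc1 (3.90, 0.197 and 1.38). Low-count members went against the sum: C1qb had 4, 32 and 44 counts in the 3 groups, Tyrobp 0, 15 and 0, and Fcer1g 2, 12 and 1. Of the 4 markers tested, 1 rose and 3 fell with shEya3_KD1, and shEya3_KD2 had 2 called each way. Of all genes tested 50.3% were called with shEya3_KD1 and 45.3% with shEya3_KD2. C1qb was called higher with both hairpins, though it reached the filter's cutoff in 0, 1 and 3 libraries of the 3 groups. C1qa and C1qc had no counts in any library, Adgre1 had 1 count in SCR and none elsewhere, and Csf1r was at 0.148, 0.108 and 0.0794 CPM. Endothelial markers summed to 4.26 to 5.12, 2.82 to 3.88 and 2.15 to 2.81 CPM, but their members went opposite ways with shEya3_KD1. Cdh5 was at 3.72, 0.264 and 2.13 CPM in the 3 groups, Emcn at 0.0132, 2.24 and 0, and Vwf at 0.205, 0.632 and 0.235. The part of these markers in the chemokine values was not tested.

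**Figure D1:**
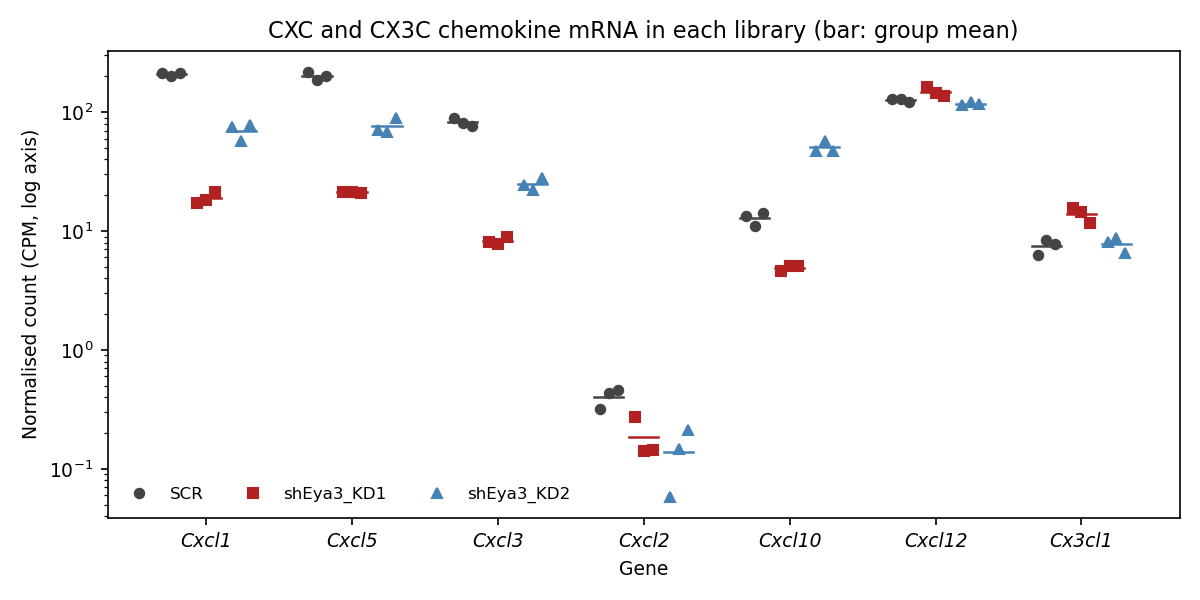
Level of each tested chemokine gene in CPM (log axis) in the 3 libraries of each group, with a bar at the group mean. For Cxcl1, Cxcl5 and Cxcl3 the shEya3_KD2 libraries lie between SCR and shEya3_KD1, whereas for Cxcl10 they lie above SCR and for Cxcl12 the groups lie close together.

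Cxcl10 moved in opposite directions with the 2 hairpins. The gene (chromosome 5, 92346638 to 92348889, minus strand), which encodes an interferon-induced attractant of T cells, was at 13.4, 11.1 and 14.3 CPM in SCR, at 4.62, 5.13 and 5.04 in shEya3_KD1 and at 47.2, 57.0 and 47.4 in shEya3_KD2. No group overlapped another. The mean was 38.2% of SCR with the first hairpin and 392% of SCR with the second. It fell by 1.38 ± 0.11 on the log2 scale with shEya3_KD1 (adjusted p = 9.19e-08) and rose by 1.97 ± 0.10 with shEya3_KD2 (adjusted p = 1.72e-09), and the direct difference between the hairpins was 3.35 ± 0.11 (adjusted p = 5.1e-12, edgeR). Leaving out any library kept both directions, with -1.50 to -1.32 for the first hairpin and 1.86 to 2.04 for the second. Art3 overlaps Cxcl10 on the opposite strand, with 16 counts in all 9 libraries.

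Cxcl12 changed little. This ligand of Cxcr4 (chromosome 6, 117168535 to 117181367, plus strand) was at 129.9, 129 and 122 CPM in SCR, at 162, 145 and 137 in shEya3_KD1 and at 115, 121 and 118 in shEya3_KD2. The shEya3_KD1 libraries were the highest and the shEya3_KD2 libraries the lowest. The rise of 0.22 ± 0.07 with shEya3_KD1 passed the test (adjusted p = 0.0144) but not without SCR replicate 3 (0.19, adjusted p = 0.093) or shEya3_KD1 replicate 1 (0.15, adjusted p = 0.0719). With shEya3_KD2 the value was -0.11 ± 0.07 (adjusted p = 0.225), and shEya3_KD2 was lower than shEya3_KD1 by -0.33 ± 0.07 (adjusted p = 0.00113). Fibroblasts are a known source of Cxcl12: the 8 fibroblast markers summed to 28.6 to 35.5 CPM in SCR, 43.2 to 45.7 in shEya3_KD1 and 28.8 to 41.6 in shEya3_KD2. Most of that sum was Pdgfra (28, 37.9 and 33.1 CPM), and Thy1 had no counts in any library. The collagen genes parted, with Col1a1 at 3.65, 1.30 and 2.45 CPM and Col1a2 at 0.0847, 4.53 and 0.124. The part of these markers in the Cxcl12 values was not tested.

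Cx3cl1, a membrane-anchored chemokine on chromosome 8 (94772009 to 94782427, plus strand), rose with the first hairpin. It was at 6.24, 8.38 and 7.84 CPM in SCR, at 15.5, 14.5 and 11.7 in shEya3_KD1 and at 8.13, 8.79 and 6.59 in shEya3_KD2. The shEya3_KD1 libraries were above all others, while SCR and shEya3_KD2 overlapped. The change was 0.90 ± 0.14 with shEya3_KD1 (adjusted p = 7.19e-05) and 0.06 ± 0.14 with shEya3_KD2 (adjusted p = 0.76). The hairpins differed by -0.84 ± 0.14 (adjusted p = 1.75e-04 in the same fit), so the difference between them was itself called.

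Cxcl16, the other transmembrane chemokine and the ligand of Cxcr6, was at the edge of detection (chromosome 11, 70453983 to 70459984, minus strand). It had 4, 1 and 2 counts in SCR, 0, 1 and 0 in shEya3_KD1 and none in shEya3_KD2. The level in SCR was 5.75 times that in shEya3_KD1, with a 95% counting interval of 0.739 to 259. Against shEya3_KD2, where a floor of 3 counts over the group was used, the SCR level was 1.97 times that floor. This ratio takes the 7 counts in SCR as exact, so it is not a lower bound. Zmynd15 overlaps it on the opposite strand, so these few counts are uncertain. Cxcl14 (chromosome 13, 56288643 to 56296551, minus strand) had no counts in any of the 9 libraries, which allows a level of up to 0.00787 CPM. Floors and counting intervals cover counting error only.

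Among the chemokines tested, 7 of 7 were called with shEya3_KD1, 2 higher and 5 lower with Cxcl2 among them, where 50.3% of all genes tested were called, 24.1% as rising and 26.2% as falling. With shEya3_KD2 5 of 7 were called, 1 higher and 4 lower, against 45.3% of all genes, 23% rising and 22.3% falling. Between the hairpins 6 of 7 were called, 4 higher in shEya3_KD2 and 2 lower, against 49.6%, 27% and 22.5%. Libraries did not overlap between shEya3_KD1 and SCR for 7 of 7 chemokines, 2 higher and 5 lower, against 59.3% of all genes tested, 28.9% and 30.4%. For shEya3_KD2 and SCR this held for 6 of 7, 1 higher and 5 lower, against 54.4%, 27.4% and 27%, and for shEya3_KD2 and shEya3_KD1 for 6 of 7, 4 higher and 2 lower, against 54.3%, 29.5% and 24.8%. Cxcl2, which entered the test only through SCR, is among the lower genes in every count against SCR. Its part in those counts, and in the medians that follow, supports nothing. With so many genes called, the counts are read here only beside the sizes of the changes. The median log2 fold change of the 7 genes was -1.38, -1.40 and 1.59 in the 3 comparisons, beside 0.0136, -0.00438 and 0.00299 over all genes tested. Called changes over 2-fold were made by 14.7%, 9.3% and 12.4% of all genes.

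**Figure D2:**
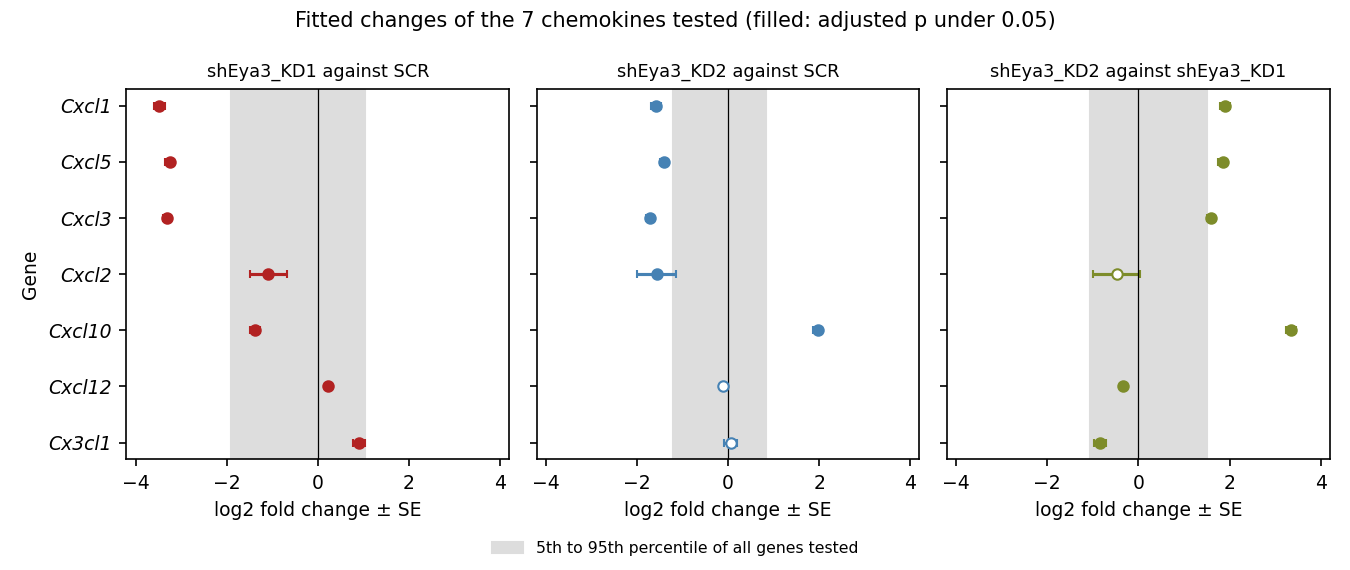
Fitted log2 fold change with its SE for the 7 tested chemokines in the 3 comparisons; filled points passed an adjusted p of 0.05 and the grey band spans the 5th to 95th percentile of all genes tested. Cxcl1, Cxcl5 and Cxcl3 lie outside the band in every panel, and Cxcl10 lies outside it to the right with shEya3_KD2 and inside it with shEya3_KD1.

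Compared per kilobase of the longest coding mRNA, which makes genes comparable, the order of levels changed between the groups. In SCR it ran Cxcl1 (221 CPM per kb), Cxcl5 (128), Cxcl3 (80.8), Cxcl12 (22.6), Cxcl10 (11.8), Cx3cl1 (2.26) and Cxcl2 (0.363), with no overlap between neighbours. In shEya3_KD1 Cxcl12 came first at 26.3 CPM per kb, ahead of Cxcl1 (19.9), Cxcl5 (13.4) and Cxcl3 (8.16), and Cxcl10 (4.51) and Cx3cl1 (4.2) overlapped. In shEya3_KD2 the order was Cxcl1 (73.5 CPM per kb), Cxcl5 (48.5), Cxcl10 (46.2), Cxcl3 (24.5), Cxcl12 (21) and Cx3cl1 (2.36), with Cxcl5 and Cxcl10 overlapping. Cxcl12 has mRNAs of very different length: with its shortest one it stood at 67.6, 78.9 and 62.8 CPM per kb, still below Cxcl3 in SCR and first in shEya3_KD1, but next to Cxcl1 and overlapping it in shEya3_KD2.

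The 4 Cxcr2 ligands made up 92.2% ± 0.196 (SD, n = 3) of the summed level per length of the 9 genes in SCR, 54.3% ± 3.32 in shEya3_KD1 and 67.6% ± 4.79 in shEya3_KD2. Cxcl12 took 4.84%, 34.3% and 9.73% of that sum, and Cxcl10 took 2.52%, 5.88% and 21.5%. The sum itself was 467 ± 20.4 CPM per kb in SCR, 76.7 ± 1.07 in shEya3_KD1 and 216 ± 15.1 in shEya3_KD2. These shares depend on the length taken for Cxcl12. With the shortest coding mRNAs, a setting added after seeing the data, Cxcl12 took 13.2%, 61.0% and 24.4% and the Cxcr2 ligands 84.0%, 32.3% and 56.7%, in the same order of groups.

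Within a library the proportions of the abundant Cxcr2 ligands moved less than their levels. The ratio of Cxcl1 to Cxcl5 per length was 1.73 ± 0.0853 in SCR (SD, n = 3), 1.48 ± 0.172 in shEya3_KD1 and 1.52 ± 0.192 in shEya3_KD2, and the ranges of the groups overlapped. The ratio of Cxcl3 to Cxcl5 was 0.588 to 0.675 in SCR and 0.573 to 0.663 in shEya3_KD1, and lower in all 3 shEya3_KD2 libraries, at 0.483 to 0.536. That of Cxcl1 to Cxcl3 was 2.59 to 2.99 in SCR, lower in all 3 shEya3_KD1 libraries at 2.28 to 2.52, and 2.75 to 3.25 in shEya3_KD2. By contrast the ratio of Cxcl12 to Cxcl5 went from 0.177 ± 0.0141 in SCR to 1.96 ± 0.159 in shEya3_KD1 and 0.439 ± 0.0641 in shEya3_KD2, and that of Cxcl10 to Cxcl5 from 0.0918 ± 0.00883 to 0.335 ± 0.0194 and 0.972 ± 0.216. An exact permutation test of a ratio between groups of 3 libraries cannot give a p below 0.1.

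**Figure D3:**
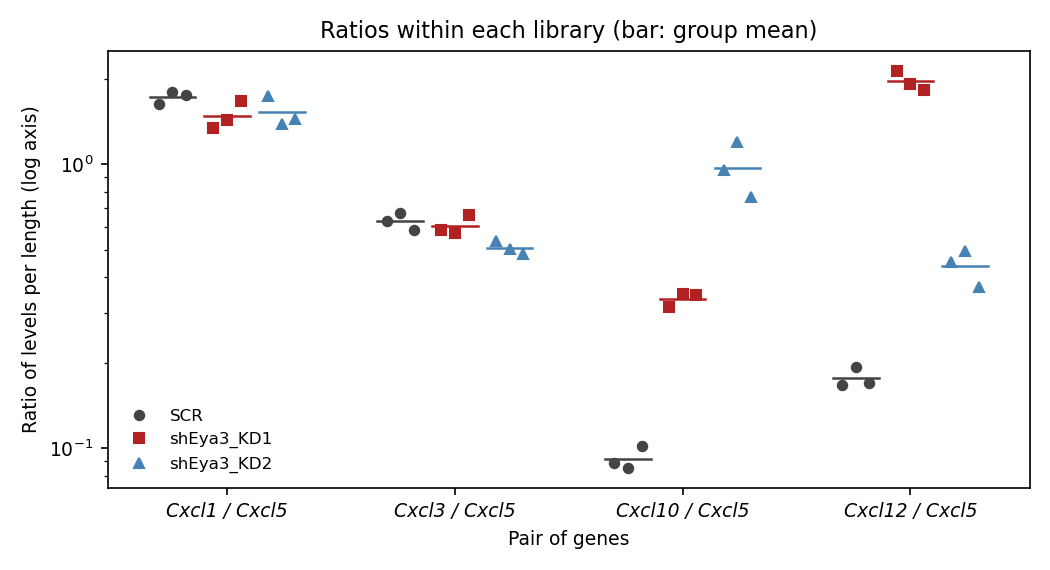
Ratio of levels per length of 4 gene pairs within each library (log axis), with a bar at the group mean. The ratios of Cxcl1 and Cxcl3 to Cxcl5 lie between 0.483 and 1.79, while those of Cxcl10 and Cxcl12 to Cxcl5 separate the 3 groups.

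The Cxcr2 ligand genes lie in a cluster on chromosome 5 that also holds Cxcl15 and Pf4, the gene of platelet factor 4. The order is Cxcl5, Ppbp, Pf4, Cxcl3, Cxcl15, Cxcl1 and Cxcl2. Ppbp, whose product is processed to a Cxcr2 ligand known from platelets, lies between Cxcl5 and Cxcl3 (90768518 to 90770063) and was at 1.06 to 1.23 CPM in SCR, 0.0865 to 0.211 in shEya3_KD1 and 0.283 to 0.369 in shEya3_KD2. Its log2 fold changes were -3.06 ± 0.30 and -1.89 ± 0.26 (both called), close to those of its abundant neighbours. Within 500 kb of the Cxcl1 start, Cxcl1, Cxcl3, Cxcl5 and Ppbp fell with each hairpin. Cxcl2, the other chemokine gene tested there, entered the test only through SCR and is not counted with them.

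The other 6 tested genes of that window did not move as a block. In shEya3_KD1 cells 1 was called higher and 3 lower, and in shEya3_KD2 cells 1 higher and 2 lower. Of all genes tested 50.3% and 45.3% were called in either direction, so these few calls are not read as a trait of the window. Mthfd2l, a mitochondrial folate enzyme gene 39.9 kb beyond the Cxcl1 start, changed by -0.01 ± 0.09 and -0.03 ± 0.09. Areg, an epidermal growth factor receptor ligand 248 kb away, rose by 0.61 ± 0.08 and 0.84 ± 0.08. The predicted gene 5830473C10Rik, 330 kb to the other side, had called changes of -3.01 ± 0.20 and -2.55 ± 0.19. Farther out on that side Afp, the gene of alpha-fetoprotein, fell by 0.35 ± 0.09 and 1.67 ± 0.10.

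**Figure D4:**
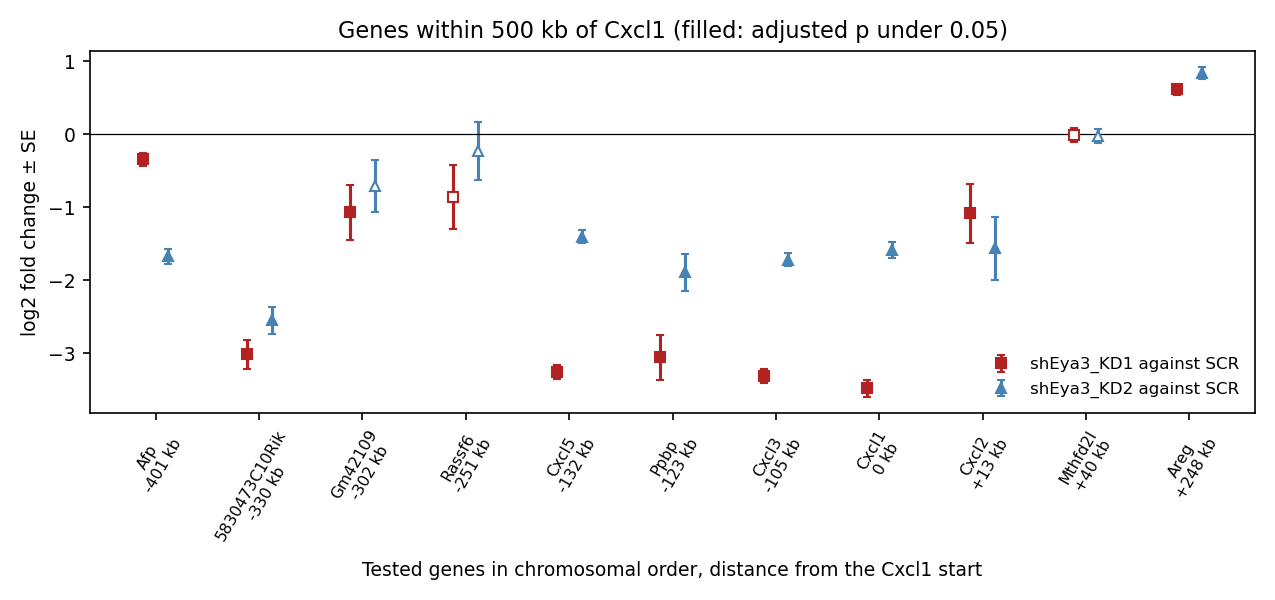
Fitted log2 fold change with its SE for the tested genes within 500 kb of the Cxcl1 start, in chromosomal order with the distance in kb; filled points passed an adjusted p of 0.05. The chemokine genes Cxcl5, Ppbp, Cxcl3 and Cxcl1 lie below 0 with both hairpins, Mthfd2l lies near 0 and Areg above it. Cxcl2 also lies below 0 but entered the test only through SCR and is not counted with them.

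Cxcl10 has a cluster of its own with Cxcl9 and Cxcl11, the other Cxcr3 ligands. Cxcl11, annotated in GENCODE as a polymorphic pseudogene (92359544 to 92365485), was at 0.385 to 0.531 CPM in SCR, 0.0749 to 0.281 in shEya3_KD1 and 0.936 to 2.62 in shEya3_KD2. Its fitted changes were -1.40 ± 0.54 (adjusted p = 0.0477) and 1.73 ± 0.37 (adjusted p = 0.00194), of which the first was lost without SCR replicate 1, 2 or 3 or shEya3_KD1 replicate 1 or 3 (-1.36, -1.31, -1.52, -1.02 and -1.39). Cxcl9, which is induced mainly by interferon gamma, went another way: 24 counts in SCR against 2 in each hairpin group, ratios of 9.86 (95% counting interval 2.45 to 86.1) and 10.1 (2.52 to 88.5). Of the other 14 tested genes within 500 kb of Cxcl10, 6 were called higher and 2 lower in shEya3_KD1, and 4 higher and 2 lower in shEya3_KD2, about the 50.3% and 45.3% of all genes called. The remaining CXC ligands were all but absent, with 1 count each for Cxcl13 and Cxcl15, none for Cxcl17 and 3 for Pf4 over the 9 libraries.

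Profiles were compared over the 9 libraries by the root mean square difference of centred log2 CPM. Candidates were tested protein-coding genes with a mean of at least 1 CPM in a group, without predicted genes and genes under clone names. The profile nearest to Cxcl1 was that of Cxcl3 (0.15), followed by Cxcl5 (0.15). Cxcl3 was nearest to Sema3c (0.12), which encodes a secreted semaphorin and had 58.2, 5.46 and 16.5 CPM in the 3 groups, and then to Cxcl1. For Cxcl5 the nearest was Gcnt2 (0.14), a glycosyltransferase gene with 41.4, 4.21 and 16.9 CPM, and then Cxcl1. Cxcl10 was nearest to Rtp4 (0.17) and Igtp (0.19), both known as interferon-induced, at 31.1, 11.3 and 101.6 CPM and at 9.98, 3.77 and 35.3 CPM. Cxcl2, with few counts, was nearest to Ube2v1 (0.27) and Arhgdib (0.27), and lay farther from Cxcl1 (1.21) than either.

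The mRNAs of the Cxcr2 ligands are known to be short-lived through AU-rich elements, of which ATTTA is the core. The longest annotated 3′ UTR of Cxcl1 held 7 such cores in 592 bases, as many or more than all but 0.434% of 1382 tested genes with a 3′ UTR of 0.8 to 1.25 times that length. Cxcl2 held 11 in 1494 bases, reached by 0.408% of genes of like length, Cxcl3 held 5 in 645 (2.91%) and Cxcl5 held 5 in 1111 (9.84%). Cxcl10 held 3 in 996 bases (26.6%), Cxcl12 4 in 5188 (90.0%), Cxcl16 2 in 1421 (60.3%), Cx3cl1 1 in 1871 (89.0%) and Cxcl14 none. Cxcl1, Cxcl2, Cxcl3 and Cxcl5 thus carried more ATTTA for their length than the others; this describes the sequences and was not tested against the changes.

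Of 8 genes for proteins known to act on AU-rich or chemokine mRNAs, 4 were called higher and 3 lower in shEya3_KD1 (median log2 fold change 0.20), and 5 higher and 1 lower in shEya3_KD2 (median 0.30), where 50.3% and 45.3% of all genes were called. Hnrnpd, which encodes the AU-rich element binding protein AUF1, rose from 179 ± 7.26 CPM to 328 ± 42.5 and 268 ± 24.2, and Zfp36l2, of the family that speeds decay, from 381 ± 18.1 to 667 ± 39.1 and 602 ± 50.4. Zc3h12a, a ribonuclease that cuts inflammatory mRNAs, fell from 18.1 ± 0.350 CPM to 9.58 ± 0.487 and 13.9 ± 0.648. Zfp36, the gene of tristetraprolin, fell with shEya3_KD1 (-0.50 ± 0.11) and rose with shEya3_KD2 (0.62 ± 0.11).

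NF-kB genes split the hairpins. Of 8 genes for NF-kB subunits and IkB proteins, 6 fell and none rose with shEya3_KD1 (median -0.80), whereas 1 fell and 1 rose with shEya3_KD2 (median 0.05), and all 8 were higher in shEya3_KD2 than in shEya3_KD1. Among all genes tested 26.2% fell with shEya3_KD1, 45.3% were called in either direction with shEya3_KD2, a larger share than in this list, and 27% were higher in shEya3_KD2 than in shEya3_KD1. Bcl3, a nuclear IkB protein, was at 8.22 to 9.48 CPM in SCR, 1.01 to 1.30 in shEya3_KD1 and 8.05 to 10.0 in shEya3_KD2, a change of -2.97 ± 0.14 with the first hairpin and 0.01 ± 0.11 with the second. Relb went from 45.8 ± 3.83 CPM to 17.5 ± 1.10 and 47.4 ± 3.04. Nfkbia, the inhibitor that NF-kB itself induces, fell with both, from 184 ± 7.29 CPM to 39.8 ± 4.27 and 103 ± 3.84, in the same order of groups as Cxcl1. Nfkbiz, a nuclear cofactor for a subset of NF-kB targets, was not called with shEya3_KD1 (0.03 ± 0.10) and rose with shEya3_KD2 (0.59 ± 0.10). With shEya3_KD2 Bcl3 was not called, and neither were Relb (0.05 ± 0.08) and Rela (0.08 ± 0.08). These are mRNA levels, and the part of NF-kB in the chemokine values was not tested.

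The 13 receptors and adaptors known to induce Cxcl1 gave 8 that fell and none that rose with shEya3_KD1 (median -0.37), and 3 that rose and 4 that fell with shEya3_KD2 (median -0.07). The share of all genes that fell with shEya3_KD1 was 26.2%, and the 7 called with shEya3_KD2 are near the 45.3% of all genes. Il17rc, a subunit of the interleukin 17 receptor, was at 34.8 ± 3.38 CPM in SCR, 8.87 ± 0.153 in shEya3_KD1 and 31.2 ± 1.33 in shEya3_KD2. Cd14, the lipopolysaccharide co-receptor, fell with both hairpins, from 27.7 ± 1.36 to 7.29 ± 0.238 and 11.4 ± 0.382 CPM. Tlr2, which senses bacterial lipoproteins, fell from 11.2 ± 0.503 to 5.29 ± 0.657 CPM with the first hairpin and was at 10.4 ± 0.346 with the second (adjusted p = 0.356). Tnfrsf1a, the main receptor for tumour necrosis factor, was at 52.1 ± 0.542 and 50.6 ± 4.03 CPM in SCR and shEya3_KD1 and rose to 79.7 ± 4.36 with shEya3_KD2.

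Most genes of the interferon signal fell with shEya3_KD1 and rose with shEya3_KD2, the directions of Cxcl10. Of 14 genes from receptors to interferon regulatory factors, 9 fell and none rose with shEya3_KD1 (median -0.44), 8 rose and 1 fell with shEya3_KD2 (median 0.34), and 12 were higher in shEya3_KD2 than in shEya3_KD1. Over all genes tested these shares were 26.2% falling with shEya3_KD1, 23% rising with shEya3_KD2 and 27% higher in shEya3_KD2 than in shEya3_KD1. Irf7, a factor that drives interferon genes, was at 48.6 to 52.8 CPM in SCR, 13.4 to 16.2 in shEya3_KD1 and 152 to 255 in shEya3_KD2. Stat2 was at 38.9 to 47.1, 19.2 to 22.6 and 111 to 184 CPM, and Irf9, its partner in the interferon-activated complex, at 37.8 to 41.7, 19.2 to 21.4 and 92.2 to 113. For each of these the groups did not overlap. Ifnb1, the gene of interferon beta, had 7 counts in SCR, 2 in shEya3_KD1 and 46 in shEya3_KD2. It was at the filter's cutoff only in shEya3_KD2 (0, 0 and 3 libraries in the 3 groups). Its call as higher there than in SCR (edgeR adjusted p = 7.74e-04) was thus favoured by the filter. Ifnb1 is among the 8 that rose and the 12 higher in shEya3_KD2, and its part in those counts and in the medians supports nothing. Ifngr2, a subunit of the interferon gamma receptor, fell from 44.9 ± 0.930 CPM to 19.7 ± 1.96 with shEya3_KD1 and to 38.0 ± 1.27 with shEya3_KD2; the second fall was lost without SCR replicate 1 (-0.22, adjusted p = 0.0558).

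**Figure D5:**
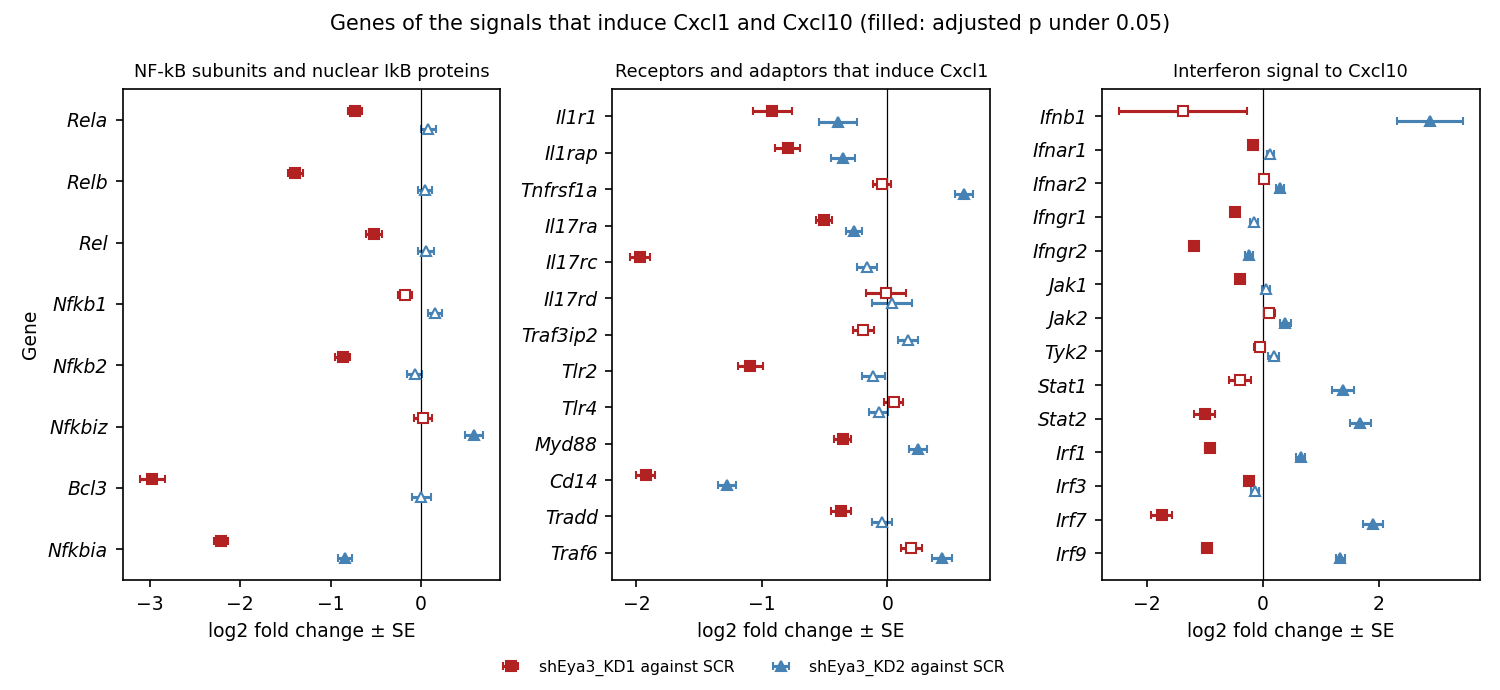
Fitted log2 fold change with its SE with each hairpin for genes of NF-kB, of receptors and adaptors that induce Cxcl1 and of the interferon signal; filled points passed an adjusted p of 0.05. Of the 8 NF-kB genes 6 fell with shEya3_KD1, and they lie near 0 with shEya3_KD2 apart from Nfkbia and Nfkbiz, and Stat2, Irf1, Irf7 and Irf9 lie on opposite sides of 0.

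The receptors of these chemokines had few or no counts. Cxcr1, Cxcr4 and Ackr1 had no counts in any library, Cxcr2 had 8 counts over the 9 libraries, Cxcr3 had 17, Cxcr5 had 18, Cxcr6 had 1 and Ackr4 had 12. Ackr3 (chromosome 1, 90203980 to 90216751), the scavenger of Cxcl12, was well detected at 16.0 to 17.7 CPM in SCR, 9.55 to 10.1 in shEya3_KD1 and 4.14 to 5.81 in shEya3_KD2. The groups did not overlap, and here shEya3_KD2 was the lowest. The called log2 fold changes were -0.77 ± 0.10 and -1.66 ± 0.11 against SCR and -0.89 ± 0.11 between the hairpins. Cx3cr1, the receptor of Cx3cl1, was at 0.333, 0.360 and 0.203 CPM and was not called in any comparison.

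Among 9 proteases known to cut or shed these chemokines 5 were tested, of which shEya3_KD1 had 4 called lower and none higher (median log2 fold change -1.35) and shEya3_KD2 3 lower and 1 higher (median -0.28), against 50.3% and 45.3% of all genes called in either direction. Mmp9, a gelatinase that trims Cxcr2 ligands, was at 14.5 to 16.6 CPM in SCR, 0.445 to 0.599 in shEya3_KD1 and 5.41 to 5.95 in shEya3_KD2, the order of groups seen for Cxcl1. Mmp14, a membrane-type metalloprotease, fell from 127 ± 7.70 to 49.7 ± 6.64 and 86.0 ± 5.84 CPM. Of the sheddases of Cx3cl1 and Cxcl16, Adam10 was at 111 ± 4.24, 119 ± 9.63 and 138 ± 9.52 CPM and rose with shEya3_KD2 (0.31 ± 0.07), and Adam17 was at 156 ± 1.18, 139 ± 7.91 and 134 ± 3.81 CPM. The fall of Adam17 with shEya3_KD1 (-0.16 ± 0.06, adjusted p = 0.0386) was lost without SCR replicate 1, 2 or 3 or shEya3_KD1 replicate 2 or 3 (-0.16, -0.17, -0.18, -0.18 and -0.13).

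Of 8 hypoxia factors and partners of Cxcl12, 7 were tested: 2 were called higher and 1 lower in shEya3_KD1 (median 0.07), and 2 each way in shEya3_KD2 (median -0.05), near the 50.3% and 45.3% of all genes called. Sdc4, a heparan sulfate proteoglycan of the kind that holds Cxcl12 at the cell surface, fell from 244 ± 7.04 CPM to 187 ± 10.4 and 161 ± 3.06. Ext1, which builds heparan sulfate chains, rose from 43.8 ± 1.09 to 57.9 ± 6.65 CPM with shEya3_KD1 and was at 38.7 ± 1.24 with shEya3_KD2.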

How the data were processed

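Per the labels' protocols, bulk RNA-seq libraries of cultured 66cl4 cells were made with a NuGEN Universal Plus mRNA-Seq kit. The submitters' processing notes name FastQC, MultiQC, STAR and mm10, without versions; no counting tool, annotation or strand setting is given in the sources used here. The authors deposited unnormalised counts, with 1 row for each symbol, and these entered the fit unchanged. Groups came from the sample titles.

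Counts were fitted in R 4.3.3 with edgeR 4.0.16: filterByExpr, TMM factors, a robust quasi-likelihood fit of all 9 libraries with group as the only term, and Benjamini-Hochberg adjustment over 15914 genes at 0.05. The fit was tested on simulated data. Standard errors were derived from the fitted change and its F statistic. Coordinates and 3′ UTRs are from GENCODE M21 (mm10), promoters from RefSeq. Fold changes are log2 values from this fit.

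The chemokines, the 15 gene lists and the rule for named genes were chosen with earlier results of these data known. The rule named all 9 chemokines, Eya3, the receptors, up to 3 genes per other list and comparison (the largest called changes without overlap, at 1 CPM or more in a group), the 2 nearest profiles, and cluster neighbours. Other list genes given with values (Nfkbiz, Rela, Ifnb1, Csf1r, Esr1 and the like) were chosen after their values were seen. Alternatives were RLE factors, DESeq2 1.42.0, limma-voom (limma 3.58.1), other filters, only the groups compared, a replicate block, a minimum fold of 1.5 and leaving out each library.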

Additional observations from a re-analysis of the deposited data

Results flagged for a closer look

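Each of these genes was called in opposite directions with the 2 hairpins, and the difference between the hairpins was itself called by edgeR. Differences are log2 values of shEya3_KD2 minus shEya3_KD1, and both hairpins share the SCR libraries. For Cxcl10 the difference was 3.35, from -1.38 with shEya3_KD1 and 1.97 with shEya3_KD2. Cxcl11, its neighbour, gave 3.13 (-1.40 and 1.73), with the limits given for its first call. Among interferon regulators Irf7 gave 3.65 (-1.75 and 1.90), Stat2 gave 2.69 (-1.01 and 1.68) and Irf9 gave 2.31 (-0.97 and 1.34). Zfp36 gave 1.13 (-0.50 and 0.62). Of genes that mark cell types, Krt14, a basal keratin, gave 4.41 (-1.26 and 3.15). The lysosomal gene Cd68 gave 1.78 (-1.46 and 0.32); its rise with shEya3_KD2 was lost without SCR replicate 1, 2 or 3 or shEya3_KD2 replicate 1 or 3 (0.32, 0.33, 0.30, 0.37 and 0.26).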

How the results depend on the processing

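Of 353 chemokine log2 fold changes computed under 17 other settings, 340 kept their direction and their side of the threshold, and none that was called reversed. With a minimum fold of 1.5, 2591, 1456 and 2087 genes were called in the 3 comparisons in place of 8011, 7210 and 7889. Under that setting 1 chemokine rose with shEya3_KD1 and 0 fell between the hairpins (edgeR's minimum-fold test; at an adjusted p of 0.05 without the minimum fold, 2 did), since these values then missed the threshold: Cxcl12 at 0.22 and -0.33, Cx3cl1 at -0.84, and Cxcl2 at -1.08 and -1.56. DESeq2 gave Cxcl2 -1.10 with shEya3_KD1, past no threshold. Leaving out libraries, 1 to 2 chemokines rose with shEya3_KD1 (1 without SCR replicate 3 or shEya3_KD1 replicate 1). Cxcl2 ranged from -1.47 to -0.90 and from -2.11 to -1.09 with the hairpins, and Cxcl12 from 0.15 to 0.27 with shEya3_KD1. The cause was not tested. Cxcl2 gave no value with a filter of 5 CPM.

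Deviations of same-numbered libraries correlated weakly (r -0.108 to 0.196 over 9 pairs, with 3 pairs over 0.1). With 3 libraries in a group this cannot exclude a pairing by number. Under a replicate block 8093, 7329 and 8017 genes and the same 7, 5 and 6 chemokines by number were called. For 53 other named genes, a choice made after seeing the data, 2547 of 2675 values under these settings stayed the same, 107 were no longer past the threshold, 21 newly passed it and 0 reversed. Depth limits Cxcl2, Cxcl11, Cxcl16 and Cxcl9, each under 1 CPM in SCR.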
